A study of Cavia porcellus with 11 samples.

Results

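The unfolded protein response and folding machinery of the endoplasmic reticulum (ER) was followed as a set of 33 named genes in RNA-seq libraries of guinea pig (Cavia porcellus) cochlea. The members were matched to the table by gene symbol. Of the 33 symbols, 32 were found among the 21481 genes of the deposited table and 1, Asns, was not. A total of 31 members passed a filter on low counts and were tested, as were 15384 genes in all. The member that did not pass was Chac1.

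Cochleae of 3 groups were compared. The control group held 4 libraries from animals without treatment, the cisplatin group 4 libraries after cisplatin, a platinum anticancer drug known to damage hearing, and the combined group 3 libraries after cisplatin together with STB. Schisantherin B, a plant lignan from Schisandra, and CNPY2, a protein of the ER, appear in the title of the series, while the labels do not spell STB out. Since none of the groups received STB without cisplatin, its effect can be read only on top of that drug. Strain, sex, age, dose and time after treatment are not stated in the labels. Whether each library stands for its own animal is not said in the labels, and the p-values therefore cover only library-to-library spread, part of which may be technical. The cochlea is a mixed tissue, and in such libraries fewer cells of a type and less RNA per cell cannot be told apart.

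When unfolded proteins build up in the ER, 3 sensors in its membrane, IRE1, ATF6 and PERK, start a programme known as the unfolded protein response. ATF6 is cut to release a transcription factor and IRE1 splices the mRNA of XBP1, and both factors raise ER chaperones, folding enzymes and the machinery of ER-associated degradation (ERAD), which pulls misfolded proteins back into the cytosol for destruction. PERK phosphorylates the translation factor eIF2alpha, which slows protein synthesis while it favours ATF4, and ATF4 raises genes of amino acid supply and of feedback. The amino acid starvation kinase GCN2 feeds into the same ATF4 arm without ER stress. The members were grouped by these roles into sensors with XBP1 (3 genes), chaperones and cochaperones (10), oxidative folding (6), ERAD (8), amino acid and eIF2alpha response (4, of which 2 were tested) and translocation into the ER (2).

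Libraries held between 14338894 and 18508296 counts. Hair cell markers (8 of 8 listed were in the table) summed to between 672.4 and 2366 CPM (counts scaled to a common library size) and the cochlear fibrocyte markers to between 31090 and 55700 CPM, so cells that define the cochlea were present in each library. Across all genes, edgeR's quasi-likelihood test called 0 genes for cisplatin against control, 3 for the combined treatment against cisplatin and 0 for the combined treatment against control at a Benjamini-Hochberg adjusted p under 0.05. A few libraries stood apart for the members. Combined replicate 3 was the highest of all 11 libraries for 13 of the 31 tested members, while it was the highest for 9.42% of all genes tested. Cisplatin replicate 2 was the highest for 10 members and for 18.8% of all genes. Combined replicate 2 was the lowest for 13 members and for 13.3% of all genes. Values without one of these libraries stand beside the results that moved most.

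Levels spanned a wide range in the untreated cochlea. In FPKM, which divides counts by exonic length, Calr, the calcium-binding lectin chaperone calreticulin, stood highest at 609 ± 65.2 FPKM (SD, n = 4). Hsp90b1, the ER form of HSP90, followed at 251.7 ± 43.6 FPKM, Canx, the membrane-bound lectin chaperone calnexin, at 245.9 ± 38.5 FPKM, and Pdia3, the disulfide isomerase that works with both lectins, at 231.4 ± 12.9 FPKM. The control libraries of these 3 genes overlapped in level, and all lay below those of Calr. Over all 11 libraries Calr ranked 71 of the 21481 genes in mean FPKM. Os9, a lectin that hands misfolded glycoproteins to ERAD, was the highest ERAD member at 144.2 ± 8.52 FPKM, and Xbp1 stood at 122.9 ± 11.4 FPKM.

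The sensors themselves lay below every chaperone of the list per length. Atf6 stood at 10.72 ± 1.02 FPKM and Ern1, which encodes IRE1, at 8.235 ± 0.223 FPKM (SD, n = 4). At the low end were Derl3, a derlin of the ERAD channel known from secretory cells, at 3.32 ± 0.693 FPKM, and Trib3, a pseudokinase target of ATF4 and CHOP, at 1.028 ± 0.287 FPKM. Chac1, a glutathione-degrading enzyme and ATF4 target, was listed at 0 to 0.22 FPKM in control libraries. Of the 31 pairs of neighbours in this order, 23 overlapped in their control libraries, so much of the order in the middle of the range was within the spread between libraries. Each step from Ern1 to Derl3, Trib3 and Chac1 was without overlap.

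**Figure D1:**
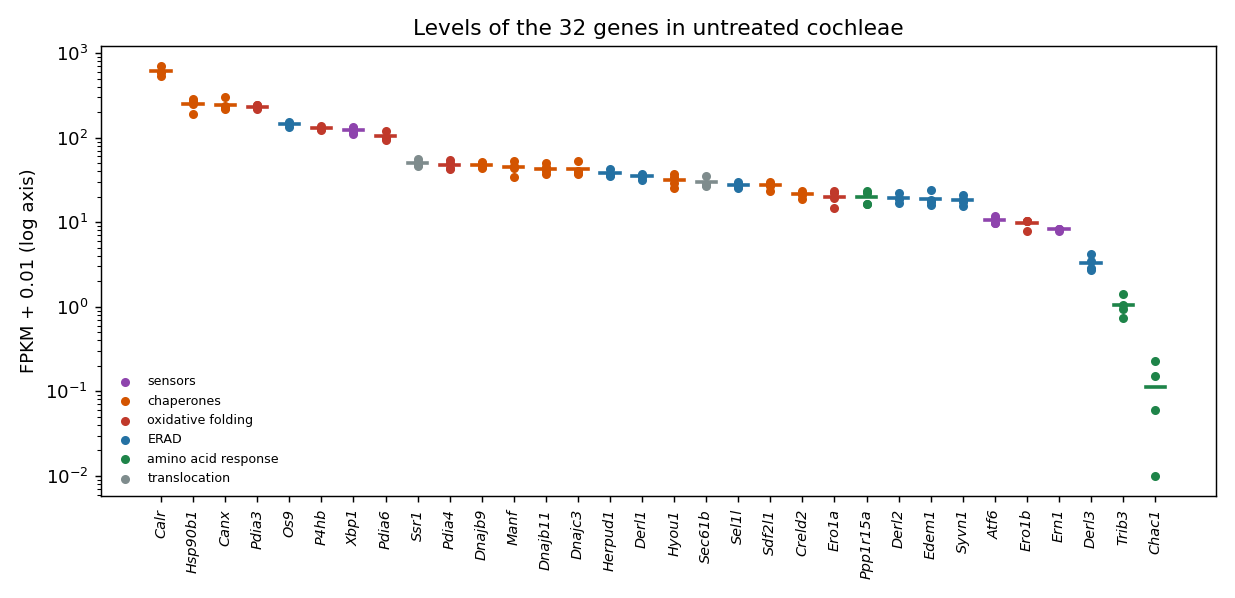
FPKM (plus 0.01, log axis) of the 32 genes in the 4 control libraries, in order of their mean. Points are libraries, bars are means and colours are the roles. Calr leads at 609 FPKM, and the amino acid response genes Trib3 and Chac1 are the lowest.

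In the deposited coordinates, Hsp90b1 spans 91650486 to 91664150 of its scaffold on the plus strand, Calr at 64533173 to 64537486 on the plus strand, Pdia4 at 55772964 to 55793330 on the minus strand, Xbp1 at 25570658 to 25575928 on the plus strand, Trib3 at 30108856 to 30116567 on the plus strand and Ssr1 at 12782830 to 12802900 on the minus strand. All 32 members found had the same start and end in RefSeq's table for the assembly mCavPor4.1, though the build behind the files is not stated. Pdia3 overlaps Ell3 and Syvn1 overlaps Mrpl49 on the opposite strand, and Ppp1r15a overlaps Bax and Atf6 an unnamed gene on the same strand, so reads in the shared stretches may have been split or left out.

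**Figure D2:**
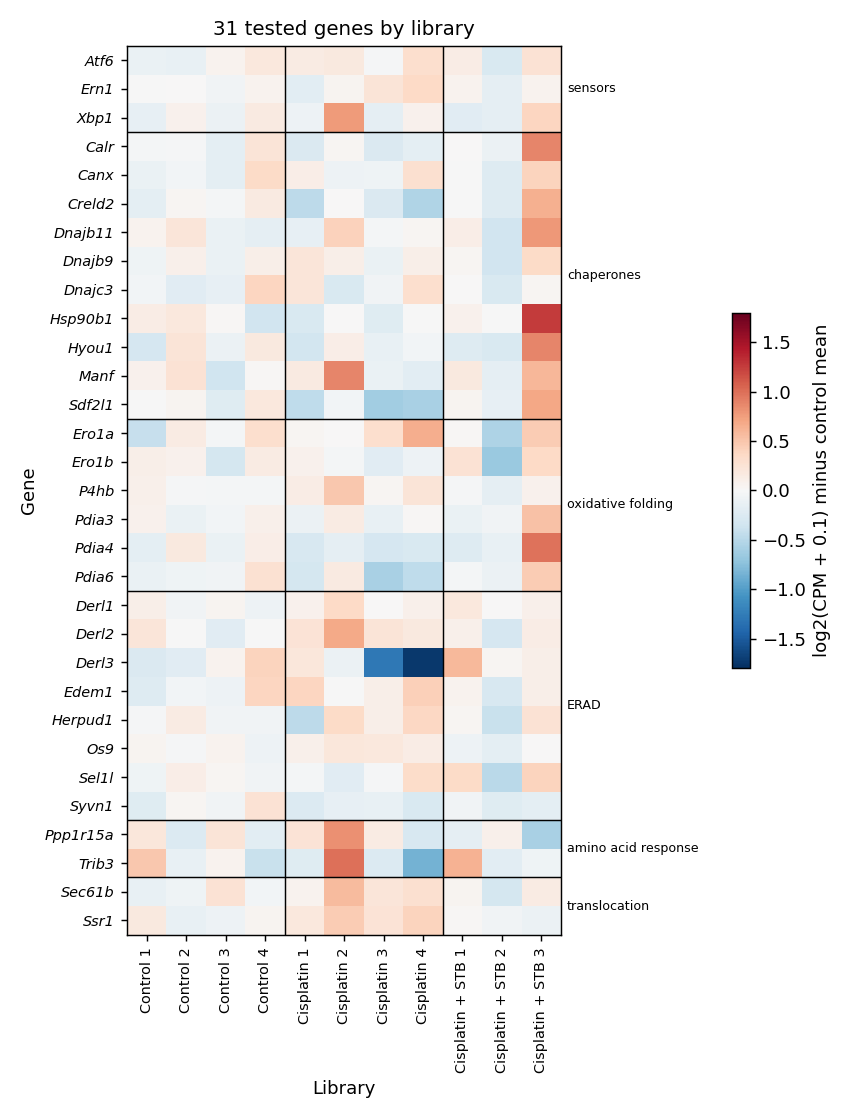
Each of the 31 tested members (rows, by role) in each library (columns, by group), as log2(CPM + 0.1) minus the mean of the 4 control libraries. Red cells are above and blue cells below that mean. Combined replicate 3 is the highest library for 8 of 10 chaperones and 4 of 6 oxidative folding genes, and cisplatin replicate 2 for Trib3, Ppp1r15a, Xbp1, Manf and P4hb.

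Cisplatin was compared with no treatment first. No member was called in any role. The fitted log2 fold changes ran from -0.57 for Derl3 to 0.34 for Derl2, with 20 members above 0 and 11 below and a median of 0.07. Of all genes tested 49.1% were above 0, and their median was -0.01. edgeR called 0 of the 31 members (smallest adjusted p = 0.448), as did DESeq2 and limma-voom. At an unadjusted edgeR p under 0.05 there were 2 members, both higher, or 6.45% of those tested, beside 9.71% of all genes (4.43% higher and 5.28% lower). The 2 members were Ssr1 and Derl2.

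Ssr1, a subunit of the translocon-associated protein complex that helps nascent chains enter the ER, had the smallest p. It stood at 186, 151, 155 and 172 CPM in control replicates 1 to 4 and at 189, 228, 196 and 219 CPM in cisplatin replicates 1 to 4. All cisplatin libraries lay above all control libraries, the closest pair being 186 and 189 CPM. The log2 fold change was 0.33 (SE 0.11; adjusted p = 0.448 in edgeR). Sec61b, the small subunit of the translocation channel, went from 22.1 ± 2.80 CPM (SD, n = 4) to 27.1 ± 4.15 CPM (n = 4) with overlapping libraries, a log2 fold change of 0.29 (SE 0.16).

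Among ERAD genes, 6 of 8 were above 0 and 2 below, with a median log2 fold change of 0.13. Os9 was the other member whose libraries did not overlap, at 355.1 to 392.6 CPM in control and 400.2 to 434.7 CPM after cisplatin, though the difference was small (log2 fold change 0.15, SE 0.10; adjusted p = 0.622 in edgeR). Members without overlap thus numbered 2 of 31, or 6.45%, both higher, beside 6.06% of all genes (2.8% higher and 3.26% lower). Derl2, a derlin of the ERAD channel, was at 23.1 to 30.8 CPM in control, at 42.9 CPM in cisplatin replicate 2 and at 30.1 to 31.5 CPM in the other cisplatin libraries, so the groups just overlapped. Its log2 fold change was 0.34 (SE 0.16) and became 0.22 without cisplatin replicate 2.

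The rest of the ERAD arm showed little shift against its spread. Edem1, a mannosidase-like factor that marks glycoproteins for degradation, had a log2 fold change of 0.22 (SE 0.16), Derl1 of 0.14 (SE 0.11), Herpud1, a scaffold of the ERAD complex and an ER stress target, of 0.13 (SE 0.18), or 0.05 without cisplatin replicate 2, and Sel1l, the partner of the ubiquitin ligase, of 0.02 (SE 0.18). Syvn1, that ligase, known as HRD1, was at -0.21 (SE 0.12). Derl3 was low and uneven. It held 72, 56, 26 and 18 counts in cisplatin replicates 1 to 4 against 47 to 95 in control, and its log2 fold change of -0.57 had an SE of 0.40. Plasma cells are rich in Derl3, and the 9 plasma and B cell markers summed to 192.9 to 426.4 CPM in control, 163.1 to 451.4 CPM after cisplatin and 162 to 228.1 CPM after the combined treatment. Of these 9 markers only 3 passed the filter on low counts, and Ms4a1 was at 0 in 10 of the 11 libraries. Cisplatin replicate 1, with the highest sum, had Cd79b, Tnfrsf17 and Ms4a1 at 0. The sums thus need not stand for plasma cells, and the part of such cells in Derl3 was not tested.

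The chaperone arm split evenly after cisplatin, with 5 members above 0 and 5 below and a median of -0.03. Sdf2l1, a cochaperone that keeps client proteins soluble for the HSP70 of the ER, had the lowest value. It stood at 22.5, 23.5, 19.4 and 25.8 CPM in control replicates 1 to 4 and at 16.5, 21.9, 14.7 and 15.1 CPM in cisplatin replicates 1 to 4. Only cisplatin replicate 2 reached into the control range. The log2 fold change was -0.42 (SE 0.20; adjusted p = 0.517 in edgeR). Creld2, a secreted ER stress target with disulfide isomerase activity, was at -0.31 (SE 0.19), Calr at -0.17 (SE 0.20), Hsp90b1 at -0.13 (SE 0.25) and Hyou1, a large HSP70 relative that serves as exchange factor, at -0.10 (SE 0.24).

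Above 0 were Manf, a secreted neurotrophic ER protein, at 0.23 (SE 0.24), Dnajb9, a J protein and classical XBP1 target, at 0.08 (SE 0.14), Dnajb11, a J protein of the ER lumen, at 0.07 (SE 0.21), or -0.05 without cisplatin replicate 2, Canx at 0.05 (SE 0.17) and Dnajc3, a J protein that also restrains PERK, at 0.04 (SE 0.16). The value of Manf rested on a single library. It was at 42.6, 70.2, 34.97 and 33.3 CPM in cisplatin replicates 1 to 4 and at 29.7 to 45.8 CPM in control. Without cisplatin replicate 2 its log2 fold change was -0.06.

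Oxidative folding genes had 2 of 6 members above 0 and a median of -0.04. P4hb, the archetypal disulfide isomerase PDI, was at 338, 313, 309 and 310 CPM in control replicates 1 to 4 and 347, 443, 327 and 372 CPM in cisplatin replicates 1 to 4, a log2 fold change of 0.23 (SE 0.12; adjusted p = 0.540 in edgeR). It was 0.14 without cisplatin replicate 2. The groups overlapped through control replicate 1 and cisplatin replicate 3. Pdia6 and Pdia4, disulfide isomerases found with ER chaperone complexes, were at -0.28 (SE 0.18), or -0.45 without cisplatin replicate 2, and at -0.27 (SE 0.23), and Pdia3 was at -0.01 (SE 0.15). Of the oxidases that recharge PDI, Ero1a was at 0.25 (SE 0.22) and Ero1b at -0.07 (SE 0.21).

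The sensors and XBP1 were all slightly above 0 after cisplatin, by less than 1.5 times their SE. Atf6 had a log2 fold change of 0.15 (SE 0.13), Ern1 of 0.13 (SE 0.13) and Xbp1 of 0.19 (SE 0.21). Xbp1 was at 206, 373, 196 and 231 CPM in cisplatin replicates 1 to 4 and at 199 to 246 CPM in control. Replicate 2 alone lay above the control range, and without it the value was -0.06. The table counts reads per gene, so the spliced form of Xbp1 was not measured.

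The amino acid arm was set by that same library. Trib3 was at 3.51, 2.25, 2.601 and 1.86 CPM in control replicates 1 to 4 and at 2.12, 5.04, 2.08 and 1.34 CPM in cisplatin replicates 1 to 4. Its level in cisplatin replicate 2 was 2.73 times the mean of the other cisplatin libraries, which lay low in the control range or under it. The log2 fold change was 0.05 (SE 0.41) with that library and -0.46 without it. Ppp1r15a, also called GADD34, which returns eIF2alpha to its active state, was at 55.9, 83.3, 52.1 and 38.4 CPM in cisplatin replicates 1 to 4 and 39.5 to 55.4 CPM in control. Its log2 fold change was 0.27 (SE 0.23) and became 0.04 without replicate 2. Chac1 held 1, 14, 1 and 0 counts in cisplatin replicates 1 to 4, between 0 and 5 counts in control libraries and between 3 and 7 in combined libraries, too few for a test.

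No row of the table carries the symbol Asns, the asparagine synthetase of this arm. Rows LOC100713960 and LOC100713681, which the deposited table describes as asparagine synthetase and asparagine synthetase-like, were looked up after the members' values had been seen. LOC100713960 was at 18.4, 35.5, 26.7 and 24.2 CPM in cisplatin replicates 1 to 4 and LOC100713681 at 30.97, 50.9, 31.5 and 33.2 CPM. Cisplatin replicate 2 was again the highest, at 1.54 and 1.6 times the mean of the other cisplatin libraries. LOC100713960 was at 20.5 to 30.6 CPM in control and 25.6 to 28.4 CPM after the combined treatment. LOC100713681 was at 25.8 to 36.4 CPM in control and 37.7 to 38.1 CPM after the combined treatment, without overlap (log2 fold change 0.25, SE 0.18). Reads may be shared between the 2 copies, and neither row was called in any comparison by edgeR (smallest adjusted p = 0.709).

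**Figure D3:**
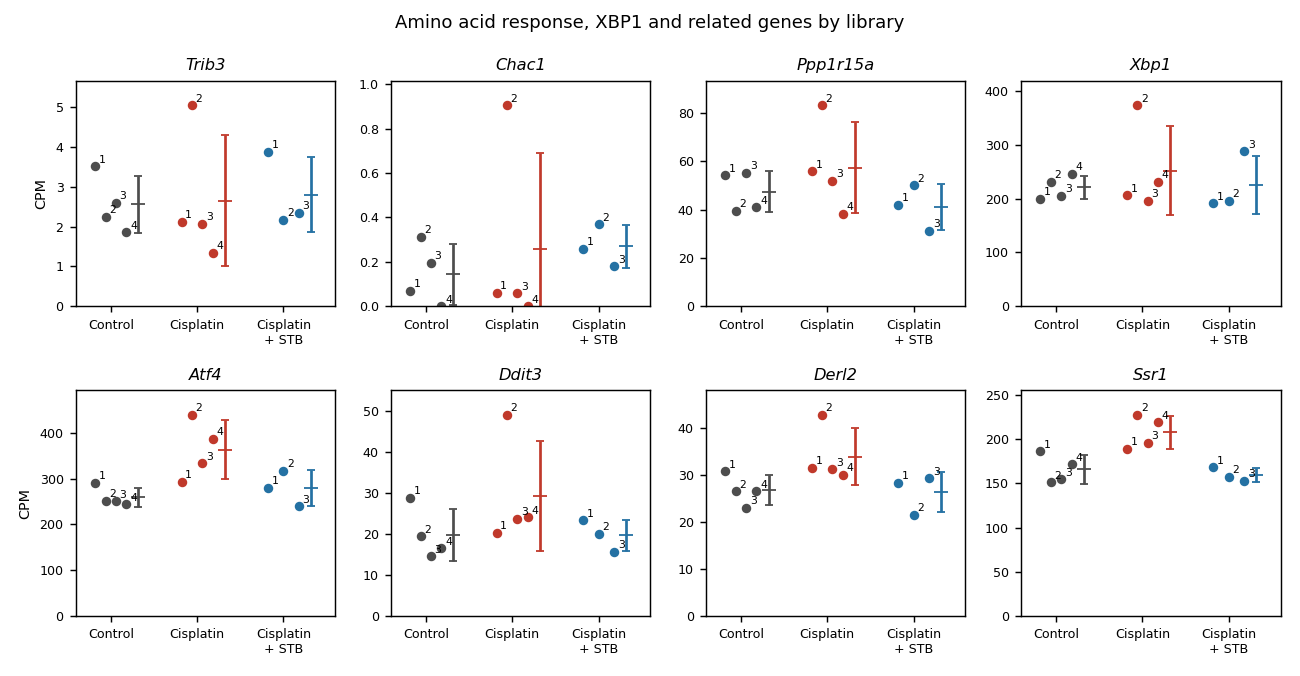
CPM by library of Trib3, Chac1, Ppp1r15a, Xbp1, Derl2 and Ssr1, with Atf4 and Ddit3 beside them. Points are libraries with their replicate number and bars are mean ± SD, drawn from 0 upward. Cisplatin replicate 2 is the highest point in all 8 panels, for example at 5.04 CPM for Trib3 and 373 CPM for Xbp1.

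Stress genes outside the list were also high in cisplatin replicate 2. Atf3, a stress-induced transcription factor, was at 91.1 CPM there and at 3.496 to 7.99 CPM in the other cisplatin libraries. Ddit3, which encodes CHOP, the late factor of the PERK arm, was at 49.2 CPM there and at 20.2 to 24.03 CPM in the others. Neither was called against control (log2 fold changes 2.33, SE 0.94, and 0.56, SE 0.29), and without that library the values were 0.19 for Atf3 and 0.20 for Ddit3. Atf4 differed from these in that all cisplatin libraries, at 293.2 to 440.3 CPM, lay above all control libraries, at 244 to 290.9 CPM. Its log2 fold change was 0.49 (SE 0.14; adjusted p = 0.440 in edgeR) and 0.39 without cisplatin replicate 2. Macrophage markers (8 of 8 in the table) summed to 165 CPM in cisplatin replicate 2 and to 56.35 to 121.6 CPM in the other cisplatin libraries. Hair cell markers summed to 2366 CPM in cisplatin replicate 2 and to 1125 to 2099 CPM in the other cisplatin libraries. The part of cell composition in these values was not tested.

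Adding STB to cisplatin was compared next with cisplatin by itself. edgeR, DESeq2 and limma-voom each called 0 of the 31 members (smallest adjusted p = 0.397, 0.0957 and 0.0596), where edgeR called 0.0195% of all genes (0.0065% higher and 0.013% lower). By role, 7 of 10 chaperones and 4 of 6 oxidative folding genes were above 0. The 3 sensor genes, 5 of 8 ERAD genes and the 2 translocation genes were below 0. Of the 2 tested amino acid genes 1 was above 0 and 1 below. Among 33 further chaperone and folding genes outside the members, 11 were above 0 and 22 below. Without combined replicate 3, 4 of 10 chaperones and 2 of 6 oxidative folding genes were above 0, and the median of all members was -0.18. Without combined replicate 2 that median was 0.11. The difference between roles was not tested. Over all members 15 were above 0 and 16 below, beside 50.8% of all genes above 0, and the median was -0.01 (0.005 over all genes). At an unadjusted edgeR p under 0.05, 5 members were higher, or 16.1%, beside 4.45% of all genes, and 2 were lower, or 6.45%, beside 4.58% of all genes, which makes 22.6% of the members and 9.03% of all genes in either direction. The 5 were Sdf2l1, Hsp90b1, Creld2, Pdia4 and Calr. The comparison shares its 4 cisplatin libraries with the one before, so the values of these comparisons are not independent.

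In the 5 higher members combined replicate 3 was the highest library. Leaving out the highest library must lower such a difference, so only the sizes that remained are of interest. Hsp90b1 was at 580, 704, 601 and 698 CPM in cisplatin replicates 1 to 4 and at 737, 694 and 1677 CPM in combined replicates 1 to 3. Combined replicate 3 was 2.34 times the mean of the other combined libraries, of which one lay within and one just above the cisplatin range. The log2 fold change was 0.68 (SE 0.27; adjusted p = 0.494 in edgeR) and became 0.15 without that library. Calr was at 948, 1161, 946 and 1009 CPM in cisplatin replicates 1 to 4 and 1139, 1059 and 2089 CPM in combined replicates 1 to 3, with a log2 fold change of 0.49 (SE 0.22) that became 0.11 without the third.

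Pdia4 behaved alike among the folding enzymes. It was at 100 to 110 CPM in all 4 cisplatin libraries and at 105, 112 and 243 CPM in combined replicates 1 to 3. Its log2 fold change of 0.57 (SE 0.24) became 0.07. Creld2 was at 19.6 to 28.6 CPM after cisplatin and 28.6, 24.3 and 44.6 CPM in combined replicates 1 to 3, and its log2 fold change of 0.49 (SE 0.20) became 0.19. Sdf2l1, with the largest of these differences relative to its error, was at 23.5, 20.6 and 36.8 CPM in combined replicates 1 to 3 against 14.7 to 21.9 CPM after cisplatin. Its log2 fold change was 0.66 (SE 0.21; adjusted p = 0.408 in edgeR) and kept more of its size without combined replicate 3, at 0.37. Without that library 0 of 31 members were higher at an unadjusted p under 0.05, where 5.92% of all genes were. At the same threshold 5 members were lower, or 16.1%, beside 6.49% of all genes.

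**Figure D4:**
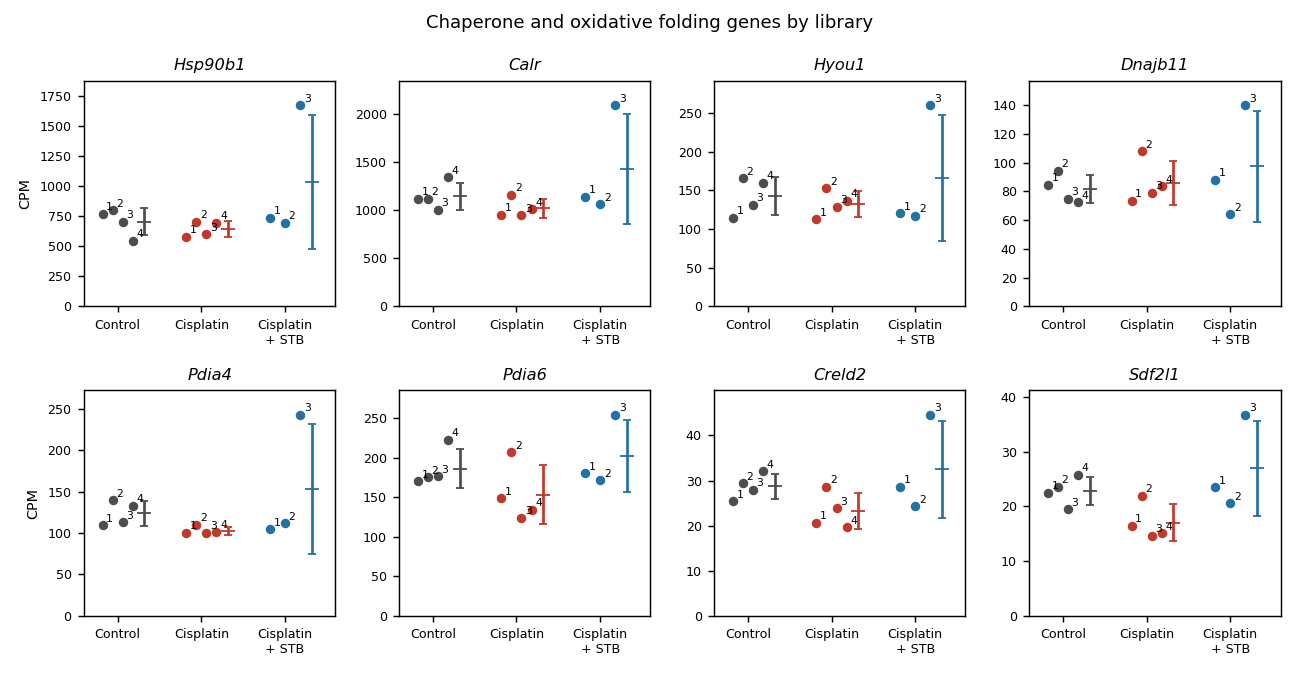
CPM by library of 8 chaperone and oxidative folding genes. Points are libraries with their replicate number and bars are mean ± SD. Combined replicate 3 is the highest point in every panel, at 1677 CPM for Hsp90b1 and 243 CPM for Pdia4, while the other combined libraries lie near the cisplatin and control points.

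In combined replicate 3 the excess varied over the folding machinery. Relative to the mean of the other combined libraries, Hsp90b1 stood at 2.34 times, Pdia4 at 2.25, Hyou1 at 2.19, Calr at 1.9, Dnajb11 at 1.84, Creld2 at 1.69, Sdf2l1 at 1.67, Ero1a at 1.62, Pdia3 at 1.54 and Manf at 1.49 times. Dnajc3 and P4hb, at 1.12 times each, were the lowest of these roles. Low values in combined replicate 2 enter these ratios, as for Ero1b, which was at 22.3 CPM in replicate 1 and 23.8 CPM in replicate 3. Xbp1 stood at 1.49 times, Atf6 at 1.24 and Ern1 at 1.08. The ERAD genes spread more narrowly, from 0.852 times for Derl3 to 1.34 times for Herpud1. Of the amino acid arm, Ppp1r15a was lower there, at 0.68 times, and Trib3 was at 0.777 times. Trib3 was at 3.88, 2.17 and 2.35 CPM in combined replicates 1 to 3, so replicate 3 lay above replicate 2. The asparagine synthetase rows LOC100713681 and LOC100713960 were at 1.01 and 1.11 times. Hspa5, the HSP70 of the ER known as BiP or GRP78 and the classical reporter of this response, is no member but stood at 1.89 times (964.5 CPM against 595.2 and 424.6 CPM), while Ddit3 was at 0.723 times. A further row is described as BiP-like, so reads of Hspa5 may be shared.

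Counted by role, 8 of 10 chaperones and 5 of 6 oxidative folding genes lay more than 0.5 on the log2 scale above the other combined libraries in replicate 3, as did 1 of 3 sensor genes and 0 of 8 ERAD, 0 of 2 amino acid and 0 of 2 translocation genes. The share over all genes tested was 13.3%. In cisplatin replicate 2 the same count was 2 of 10 chaperones, 1 of 6 oxidative folding genes, 1 of 8 ERAD genes, 1 of 3 sensor genes, 2 of 2 amino acid genes and 0 of 2 translocation genes, beside 15.3% of all genes. Xbp1, Manf, Sdf2l1 and Pdia6 were past this mark in both libraries. In the further lists, chaperone and folding genes were past it in 4 of 33 cases in each of the 2 libraries, translocation and transport genes in 9 of 37 in combined replicate 3 and 0 of 37 in cisplatin replicate 2, and amino acid response genes in 2 of 37 and 13 of 37. These counts describe single libraries, and the difference between roles was not tested.

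At the other end, combined replicate 2 lay more than 0.5 on the log2 scale below the other combined libraries for 13 members, 8 of them chaperones, beside 13% of all genes. That measure includes the high replicate 3 in its reference. Sel1l was at 231.1, 129.5 and 238.8 CPM in combined replicates 1 to 3, Ero1b at 22.3, 11.6 and 23.8 CPM and Dnajb9 at 90.7, 69.9 and 112 CPM. The spread of the members within the combined group was accordingly wide, with a median coefficient of variation of 23% (17.8% over all genes), against 12.3% in control (15.7%) and 15.3% after cisplatin (18.9%). Neuron markers (8 of 8 in the table) summed to 1587, 4063 and 906.8 CPM in combined replicates 1 to 3, to 505.1 to 2749 CPM after cisplatin and to 661.1 to 5128 CPM in control, none of them at 0 in any library. Cochlear fibrocyte markers (6 of 7 in the table) summed to 35450, 32060 and 41870 CPM in combined replicates 1 to 3 and osteoblast markers (10 of 10) to 104.8, 127.8 and 113.2 CPM. Hair cell markers (8 of 8) summed to 2247, 1011 and 2221 CPM in combined replicates 1 to 3. Stria vascularis markers (8 of 8) summed to 348.2, 234.5 and 388.4 CPM and macrophage markers (8 of 8) to 62.09, 110.6 and 52.57 CPM. The part of cell composition in the chaperone values was not tested.

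At an unadjusted edgeR p under 0.05, 2 members were lower with STB, the translocation gene Ssr1 and the ERAD gene Os9. Ssr1 was at 168, 158 and 153 CPM in combined replicates 1 to 3, all below the cisplatin libraries at 189 to 228 CPM and close to control. Its log2 fold change was -0.38 (SE 0.12; adjusted p = 0.397 in edgeR) and was -0.35 both without combined replicate 3 and without cisplatin replicate 2. Os9 was at 353, 334 and 378 CPM, again all below the cisplatin libraries, with a log2 fold change of -0.24 (SE 0.11; adjusted p = 0.531 in edgeR). Derl2, at 28.4, 21.6 and 29.3 CPM against 30.1 to 42.9 CPM, was the last of the 3 members without overlap between groups (log2 fold change -0.36, SE 0.17). These 3, all lower, were 9.68% of the members, beside 3.73% of all genes lower without overlap, 3.81% higher and 7.54% in either direction.

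P4hb had a log2 fold change of -0.26 (SE 0.13), Sec61b of -0.32 (SE 0.17), Edem1 of -0.27 (SE 0.17) and Ero1a of -0.25 (SE 0.24). Ppp1r15a was at 41.9, 50.1 and 31.3 CPM in combined replicates 1 to 3, a log2 fold change of -0.48 (SE 0.25) against cisplatin that became -0.26 without cisplatin replicate 2. Trib3 was at 3.88, 2.17 and 2.35 CPM there, a log2 fold change of 0.08 (SE 0.44), or 0.58 without that library. Derl3 had the largest fitted value of all members, 0.81 (SE 0.43), at 5.88, 4.02 and 4.22 CPM after the combined treatment.

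The other tested members lay between -0.16 and 0.40 on the log2 scale. Pdia6 was at 0.40 (SE 0.19) and Hyou1 at 0.32 (SE 0.25), becoming 0.20 and -0.16 without combined replicate 3. Dnajb11 was at 0.18 (SE 0.23), Pdia3 at 0.16 (SE 0.16), and Ero1b at 0.11 (SE 0.22), and without that library these 3 were below 0, at -0.18, -0.08 and -0.07. Sel1l was at 0.11 (SE 0.19), or -0.04 without it, and Canx at 0.02 (SE 0.18), or -0.18. Syvn1 was at 0.05 (SE 0.13), Manf at -0.01 (SE 0.26), Derl1 at -0.04 (SE 0.11) and Dnajb9 at -0.05 (SE 0.15). Dnajc3, Herpud1, Atf6, Ern1 and Xbp1 were at -0.13 (SE 0.18), -0.13 (SE 0.20), -0.10 (SE 0.14), -0.14 (SE 0.14) and -0.16 (SE 0.22).

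**Figure D5:**
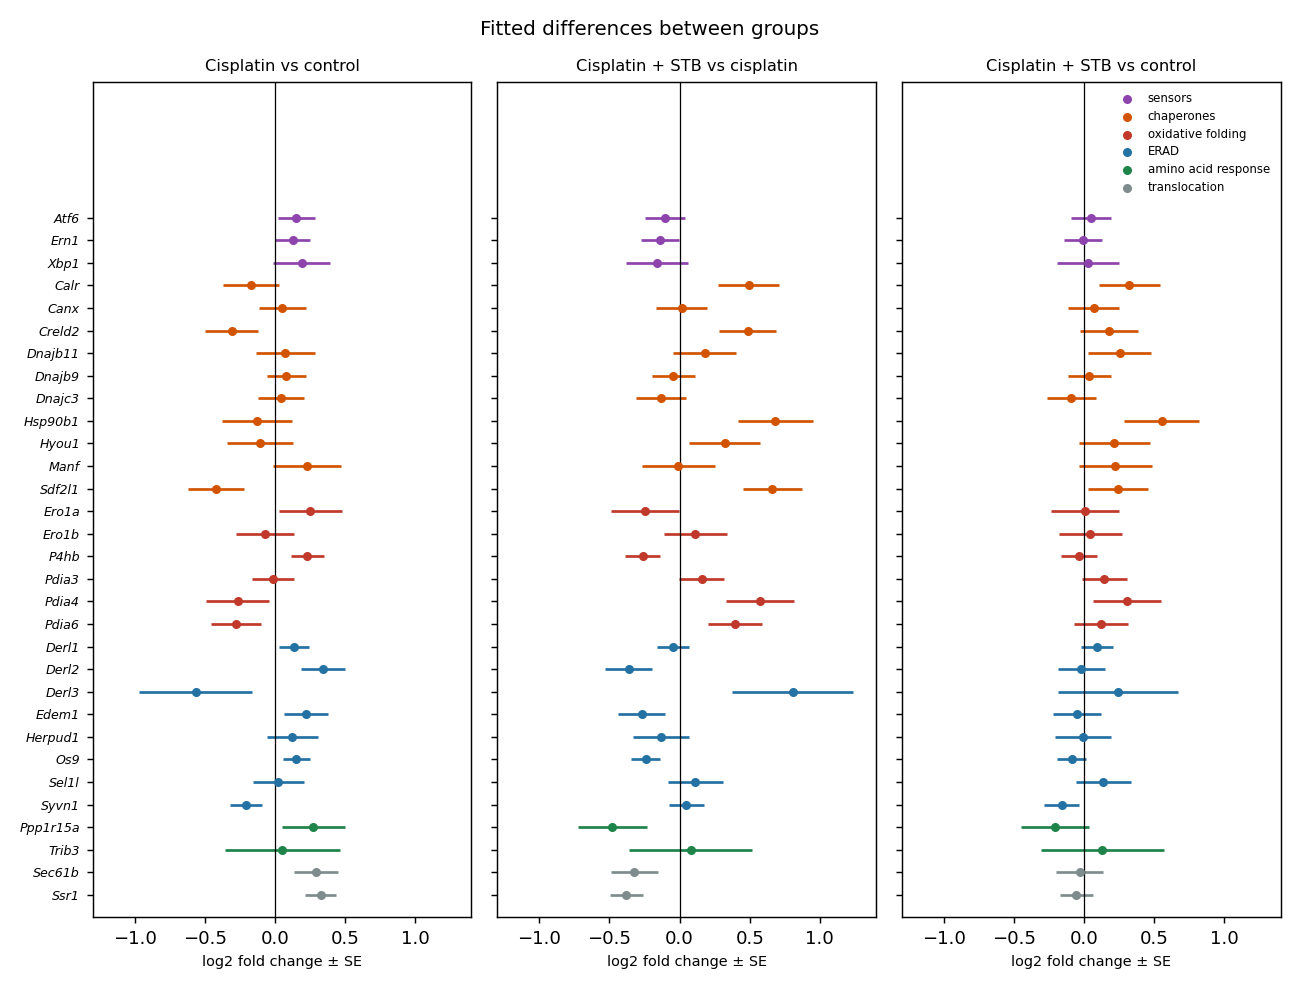
Fitted log2 fold change ± SE of the 31 tested members for the 3 comparisons, coloured by role. With STB against cisplatin, Derl3 (0.81) and Hsp90b1 (0.68) lie farthest to the right, and Ssr1 (-0.38) lies to the left. Chaperone and folding genes lie on both sides of 0, with P4hb at -0.26. None of the 31 passed the adjustment in any panel.

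Against untreated cochlea no member of the combined group passed the test. edgeR called 0 of 31 (smallest adjusted p = 1.00), as did DESeq2 and limma-voom, and 0 members had an unadjusted p under 0.05, beside 1.07% of all genes (0.397% higher and 0.676% lower). No member was without overlap between the groups, beside 2.41% of all genes (1.02% higher and 1.39% lower). In all 20 members were above 0 and 11 below, beside 49.1% of all genes above 0. The highest value was that of Hsp90b1, at 0.55 (SE 0.27), which became 0.02 without combined replicate 3. Chaperones were above 0 in 9 of 10 cases with a median of 0.22, and in 2 of 10 with a median of -0.11 without that library. Over all members the median went from 0.05 to -0.10 without combined replicate 3 and to 0.20 without combined replicate 2.

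Further genes of these pathways, taken from lists that were drawn up beside the members, were called in no comparison by edgeR with all libraries. Of 152 tested, 0 passed for cisplatin against control in edgeR, with 12 higher and 2 lower at an unadjusted p under 0.05 (4.43% and 5.28% of all genes). With STB added to cisplatin 0 passed in edgeR, with 2 higher and 12 lower (4.45% and 4.58% of all genes). Translocation and secretory transport genes were above 0 after cisplatin in 34 of 37 cases with a median of 0.14, where 49.1% of all genes were above 0 with a median of -0.01. Cisplatin replicate 2 was the highest library for 14 of the 37, and without it 31 were above 0 with a median of 0.13. With STB against cisplatin 33 of 37 were below 0 with a median of -0.13, as were 31 without cisplatin replicate 2, 34 without combined replicate 3 and 23 without combined replicate 2. Of all genes 50.8% were above 0 with STB against cisplatin, and the 2 comparisons share the cisplatin libraries. Tmed2, a cargo receptor of early secretory vesicles, had log2 fold changes of 0.29 (SE 0.13) and -0.41 (SE 0.14), and Sec61g, a subunit of the translocation channel, of 0.30 (SE 0.12) and -0.27 (SE 0.13).

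Further ERAD genes were above 0 after cisplatin in 24 of 28 cases, with a median of 0.09, and below 0 with STB against cisplatin in 23 of 28. Of all genes 49.1% were above 0 in the first comparison and 50.8% in the second. Both comparisons use the same cisplatin libraries, so their counts are not independent. Cisplatin replicate 2 was the highest library for 15 of the 28. Ufd1, part of the complex that extracts ERAD clients with the ATPase VCP, was at 0.34 (SE 0.10) after cisplatin and Herpud2, a relative of Herpud1, at 0.26 (SE 0.10), both without overlap between libraries. Ubxn6, a cofactor of VCP, went the other way, at -0.42 (SE 0.12) and at 0.38 (SE 0.13) with STB against cisplatin, without overlap in either. None of these passed the edgeR adjustment.

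Of 37 further amino acid response genes, 18 were above 0 and 19 below after cisplatin, with a median of -0.01. Slc1a5, a glutamine transporter, had the smallest p. It was at 125.4, 113.9, 123.8 and 97.9 CPM in control replicates 1 to 4, at 125.6, 236.8, 222.7 and 165.5 CPM in cisplatin replicates 1 to 4, and at 91.4, 99.6 and 112.1 CPM in combined replicates 1 to 3. The cisplatin libraries lay above both other groups, by a narrow margin in replicate 1. The log2 fold change was 0.70 (SE 0.18; adjusted p = 0.440 in edgeR) against control and -0.89 (SE 0.20; adjusted p = 0.279 in edgeR) for STB against cisplatin. The latter was called by DESeq2 (adjusted p = 0.00635) and by limma-voom with quality weights (adjusted p = 0.0167). It was also called by edgeR without cisplatin replicate 1 (adjusted p = 0.0409). That replicate was the lowest cisplatin library, so leaving it out must enlarge this difference, here to -1.06. Cebpg, a bZIP partner of ATF4, was at 0.47 (SE 0.13) after cisplatin and -0.45 (SE 0.14) with STB against cisplatin, with no overlap between libraries in either. Pycr1, an enzyme of proline synthesis, went the other way, at -0.39 (SE 0.15) and 0.45 (SE 0.16), again without overlap.

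Of 33 further chaperones and folding genes, 23 were above 0 after cisplatin with a median of 0.06, and 22 were below 0 with STB against cisplatin. The shares of all genes above 0 were 49.1% and 50.8%, and both comparisons use the same cisplatin libraries. Cisplatin replicate 2 was the highest library for 15 of the 33. Cnpy4, a relative of CNPY2, was at 0.67 (SE 0.18) and -0.53 (SE 0.19), and Qsox1, a sulfhydryl oxidase, at 0.35 (SE 0.16) and -0.52 (SE 0.18), neither called by edgeR. In the list of the PERK branch and the site proteases, 10 of 17 genes were above 0 after cisplatin. Hspa5 was at -0.24 (SE 0.23) there, at 0.52 (SE 0.25) with STB against cisplatin and at 0.14 in the latter without combined replicate 3.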

How the data were processed

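RNA-seq of 11 cochlear libraries was analysed. Per the labels' protocols, libraries were paired-end and strand-keeping, from poly(A)-selected or, where needed, ribosome-depleted RNA. The submitters' processing notes name HTSeq 0.6.1, HISAT2 2.2.1 and cutadapt 1.9.1 but not what each did. Neither the build nor the use of strand in counting is stated there. The counts the authors deposited are raw whole numbers per gene. The deposited FPKM values of the authors are those counts per exonic length and library total (ratio of implied to summed total 0.999999 to 1), and were used only to describe levels.

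Counts were filtered with filterByExpr (6097 genes removed), scaled by TMM and fitted in edgeR 4.0.16 (R 4.3.3, glmQLFit robust, 1 fit of all 11 libraries, no covariates), with Benjamini-Hochberg adjustment over 15384 genes and a threshold of 0.05. CPM use TMM library sizes. SE was taken as the log2 fold change over the square root of F. The test was checked on simulated counts. DESeq2 1.42.0, limma 3.58.1 (voom), other scalings, no filter, only the compared groups, a replicate block and each library left out were alternatives. Members and gene lists were chosen with earlier results of these data known, so no list was tested. All members are named, and of each further list up to 3 genes with the smallest p per comparison could be named, beside Hspa5, Atf4, Ddit3 and Atf3.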

Additional observations from a re-analysis of the deposited data

Results flagged for a closer look

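In 5 of the 64 sets of 4 libraries examined (32 members, control and cisplatin), 1 library stood apart from the other 3 by most of the group's range, which chance gives in about 1 of 20 sets. P4hb was at 338 CPM in control replicate 1 and at 309 to 313 CPM in the other control libraries. Pdia6 was at 222 CPM in control replicate 4, with the others at 170 to 176 CPM. Ero1b was at 14.8 CPM in control replicate 3, below 19.5 to 20.5 CPM in the rest. Derl2 was at 42.9 CPM in cisplatin replicate 2, above 30.1 to 31.5 CPM. Pdia4 was at 110 CPM in the same library, above 99.97 to 101.5 CPM. The combined group, with 3 libraries, was not examined in this way.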

How the results depend on the processing

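No member was called in any of the 3 comparisons under any of the 18 alternatives. For cisplatin against control, 33 genes were called by DESeq2, 3 by limma-voom, 1 with no low-count filter and 0 to 7 with 1 library left out, against 0. For STB against cisplatin, 101 were called by DESeq2, 215 by limma-voom, 0 when only the groups compared were fitted and 0 to 23 with 1 library left out, against 3, and for the combined treatment against control 0 to 2 with 1 library left out, against 0. With the replicate block 0 genes were called for STB against cisplatin and 0 members in each comparison. The data gave no clear sign that libraries with the same number were paired. Of 10 such pairs 3 had a correlation of deviations over 0.1 (range -0.308 to 0.358), and 2 of 11 libraries matched best with their own number. So few pairs cannot decide whether the numbers mark a shared animal or batch. The sign of the log2 fold change held in all alternatives for 23 of 31 members for cisplatin against control, 18 for STB against cisplatin and 7 for the combined treatment against control. The cause was not tested. Depth limited Chac1, at 0 to 14 counts a library.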
